A study of Mus musculus with 28 samples.

Results

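The 10 genes described here are Notch ligands, Notch receptors and genes that respond to or modify Notch signaling, out of 45706 genes in the deposited tables. They were chosen by symbol with earlier results of these data known, so shares of them set against all genes below are descriptions. They were matched by Ensembl identifier, and all 10 had a row in both tables. The receptors are Notch1, Notch2 and Notch3, the ligands are Jag1, Jag2 and Dll1, the target genes are Hes1, Hey1 and Heyl, and Lfng encodes a glycosyltransferase that modifies the receptors.

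RNA was sequenced from mIMCD-3 cells, an epithelial line that came from the inner medullary collecting duct in an SV40 transgenic mouse, and no gene was edited in any group. Polyclonal cells are the line as obtained, monoclonal WT5 was grown from 1 cell sorted from it, and subclones 1 to 5 were each grown from 1 cell sorted from WT5. There were 4 libraries in each of these 7 groups, 28 in all, with RNA taken from cultures in serum-containing medium without treatment. WT5 and every subclone are therefore 1 clone each, and the sources describe the 4 libraries of a group both as biological and as technical replicates, so p-values measure the spread between libraries, which may be technical. Polyclonal cells were sequenced as short single-end reads and WT5 as longer paired-end reads at another time, so the line and the sequencing cannot be told apart between them.

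Notch receptors are transmembrane proteins that are activated by ligands on a neighboring cell. Binding leads to cleavage of the receptor by an ADAM protease and by gamma-secretase, and the released intracellular domain enters the nucleus, where it joins the DNA-binding protein RBPJ and Mastermind coactivators. Hes and Hey genes are the classical targets and encode repressors. In the collecting duct, Notch signaling is known for favoring the principal cell over the intercalated cell, and Mib1, a ubiquitin ligase, is needed in the cells that send the signal.

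Values are TPM, a share of transcripts scaled for transcript length, so levels of different genes can be set side by side. Each library sums to the same total, and the number of reads is not kept. Of 10 collecting duct and tubule markers, 5 were higher and 2 lower in WT5 than in polyclonal cells at an adjusted p-value below 0.01 (limma). The epithelial adhesion gene Epcam was at 458 to 539 TPM in polyclonal cells and at 581 to 619 TPM in WT5, and Cdh1 at a mean of 144.7 and 97.6 TPM, whereas Gata3, a transcription factor of the collecting duct, was at 4.08 and 0.04 TPM. Of 11 principal cell markers, 4 in polyclonal cells and 2 in each other group had a mean of at least 1 TPM, and Aqp2 was listed at 0 in all 28 libraries. In limma, 4 could be tested between WT5 and polyclonal cells, with 1 higher and 3 lower in WT5. Avpr2 was at 10.6 TPM in polyclonal cells and 0.06 TPM in WT5, and Hsd11b2 at 1.995 and 4.41 TPM. Scnn1g was at 14.3 and 4.85 TPM in these lines and at 16.0 TPM in subclone 5. Foxi1, which defines intercalated cells, was listed at 0 in polyclonal cells and WT5, and the 11 intercalated cell markers summed to at most 2.16 TPM in any library. The lists for endothelium, fibroblasts and podocytes each summed to at most 2.12 TPM in any library, and 4 proximal tubule markers to 1.43 to 1.61 TPM in polyclonal cells and 3.30 to 10.1 TPM in the others. Nearly all of the proximal tubule sum was Lrp2, at a mean of 1.515 TPM in polyclonal cells and 3.71 TPM in WT5. The rest of that list reached at most 0.09 TPM each in any library. Of 5 leukocyte markers, Csf1r and Cd68 exceeded a mean of 1 TPM in each group, with a summed level of 12.2 to 13.8 TPM in polyclonal cells and 28.4 to 55.6 TPM in the other libraries, while Ptprc was at 0.03 TPM in both polyclonal cells and WT5. The part of these markers in the results was not tested.

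Bases before the start site are shown for 3 members with clear differences between groups for which RefSeq (GRCm38.p6) gave a start with sequence outside exons. Of the 10 members, 7 had an entry, for which the 250 bases before the start were searched for the letters TGGGAA, the core bound by RBPJ, and CACGTG, a site for bHLH proteins of the Hey type, on both strands. Of the 32851 windows in the RefSeq table, 21.6% held the first motif and 6.02% the second. Capitals mark the RBPJ core, and the last base shown lies next to the first exon or the start.
Lfng, chr5:140607091-140607319, plus strand: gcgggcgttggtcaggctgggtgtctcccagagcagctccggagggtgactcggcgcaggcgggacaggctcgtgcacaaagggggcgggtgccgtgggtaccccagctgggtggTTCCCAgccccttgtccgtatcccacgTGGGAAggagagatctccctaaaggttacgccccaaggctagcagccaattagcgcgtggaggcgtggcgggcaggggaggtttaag
Jag1, chr2:137116645-137116770, minus strand: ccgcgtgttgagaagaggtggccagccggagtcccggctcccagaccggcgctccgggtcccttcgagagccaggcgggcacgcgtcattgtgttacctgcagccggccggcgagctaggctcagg
Notch3, chr17:32166891-32167140, minus strand: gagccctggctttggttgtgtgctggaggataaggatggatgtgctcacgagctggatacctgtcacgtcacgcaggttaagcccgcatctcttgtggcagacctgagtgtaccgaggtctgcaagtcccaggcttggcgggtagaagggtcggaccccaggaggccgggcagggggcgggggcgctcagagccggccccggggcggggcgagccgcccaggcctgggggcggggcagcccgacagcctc
Lfng was the only one of the 7 members whose 250 bases held either motif. It held 2 RBPJ cores, 1 on each strand, at 135 to 130 and 108 to 103 bases before the start, and the latter overlapped its only CACGTG. Among the other target genes discussed below, the window of Hey2 held 1 RBPJ core and that of Nrarp 1 CACGTG, at 108 to 103 bases before the start, and no RBPJ core. A match of letters is a description and was not tested for binding.

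To ask how far a clone can differ from the line it came from, WT5 was compared with polyclonal cells. The ligands Jag1 and Jag2, which were low in polyclonal cells, differed most of the members tested and were abundant in WT5, and Dll1 was lower. Notch3 and Hey1 were also higher in WT5, Notch1 and Lfng were higher by a smaller ratio, and Notch2 was lower. Differences were tested with limma on log2(TPM) z-scored within each library, with Benjamini-Hochberg adjustment over the 13723 genes that had a TPM above 0 throughout these 8 libraries. Higher, lower, rose and fell are written of a member where the adjusted p-value was below 0.01. A gene was called where the z-score difference was also above 1, as in the thresholds of the study. A z-score unit is the SD of log2(TPM) over genes in a library, which was 3.07 to 3.14 here. The call therefore needs a log2 difference of about that size, far more than a 2-fold difference. By the call, 2 of the 9 members tested were higher and 0 lower in WT5, where 5.43% of all genes were called (2.31% higher, 3.12% lower). At an adjusted p-value below 0.01 without a size limit, 8 of 9 differed, against a background of 65.5%, so this count says little about the members as such. The libraries of both lines did not overlap for 8 of 9 members, against 72.3% of genes. The median size of the log2 difference was 2.17 over the 9 members and 0.523 over all genes tested, in each case relative to the median shift of all genes, which was 0.24 toward WT5.

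**Figure D1:**
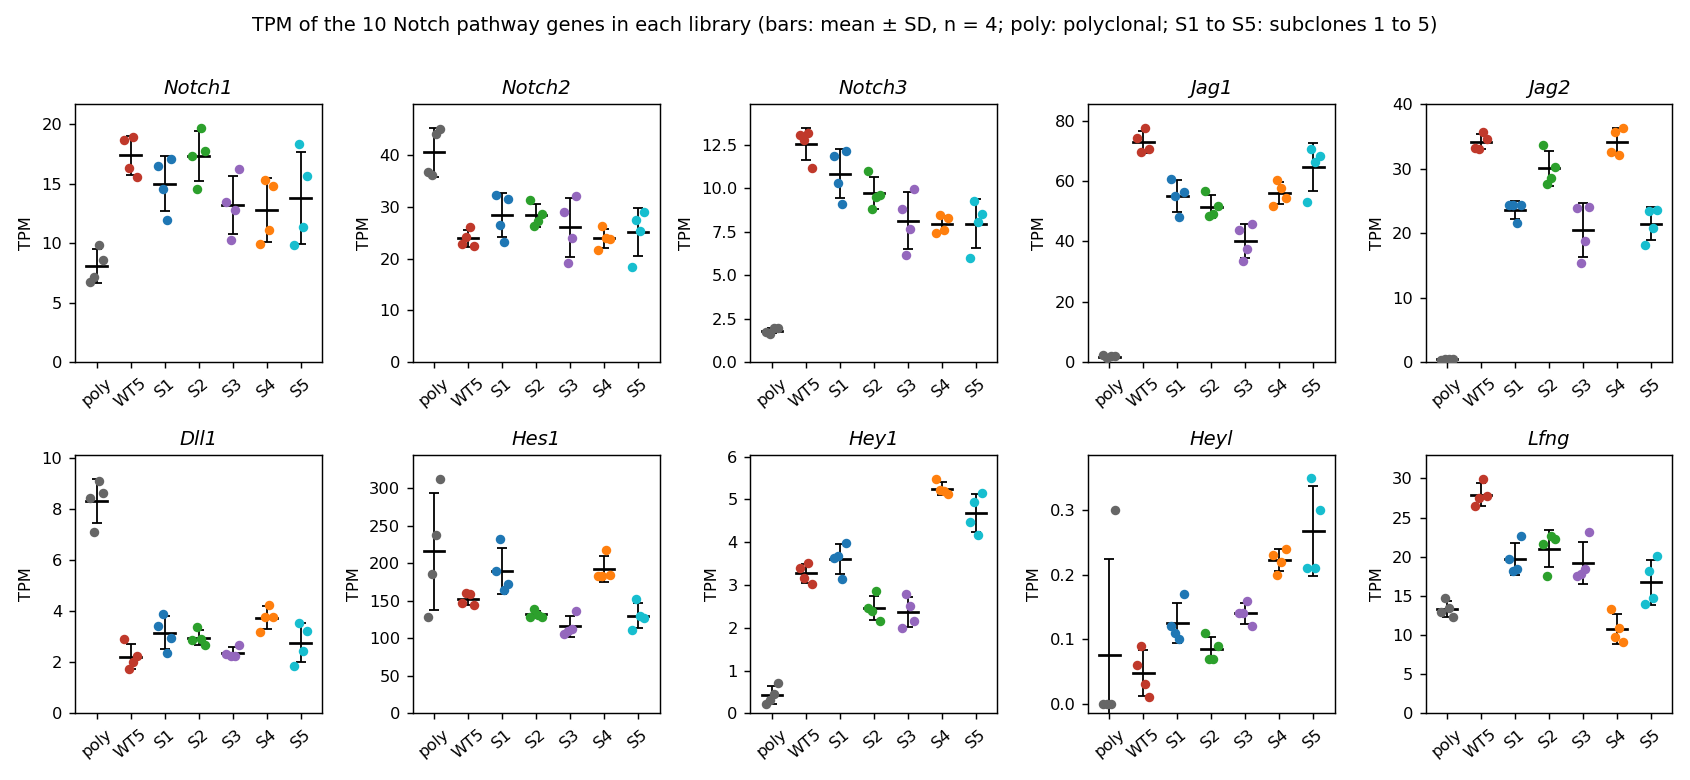
TPM (y axis, linear, a scale of its own for each gene) of the 10 members in each library of polyclonal cells, WT5 and subclones 1 to 5 (x axis), with 1 point per library and black bars for mean ± SD of 4 libraries. Jag1, Jag2, Notch3 and Hey1 are near the bottom of their panels in polyclonal cells only, Lfng is at its top in WT5, and the SD bar of polyclonal Heyl is cut off at the lower edge.

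Among the ligands, Jag2 (ENSMUSG00000002799, chr12:112907819-112929776, minus strand, GRCm38) was measured at 0.41, 0.49, 0.51 and 0.55 TPM in polyclonal cells and at 33.3, 33.2, 35.7 and 34.7 TPM in WT5. The groups are far apart, with mean levels of 0.49 ± 0.0589 and 34.2 ± 1.19 TPM (SD, n = 4). This is a 69.8-fold ratio, with a z-score difference of 1.90 ± 0.0290 (SE) and an adjusted p-value of 4.26e-09 in limma. Jag1 (ENSMUSG00000027276, chr2:137081456-137116644, minus strand), mutated in Alagille syndrome, was at 2.31, 1.4, 1.94 and 2.02 TPM in polyclonal cells and at 74.2, 69.7, 77.6 and 70.6 TPM in WT5. It was the more abundant of the Jagged genes in both lines, and its ratio was 38.1 (z-score difference 1.63 ± 0.0423, adjusted p = 4.4e-08, limma). Dll1 (ENSMUSG00000014773, chr17:15367354-15376872, minus strand), a ligand of the Delta family, went the other way, with 8.43, 7.10, 9.10 and 8.62 TPM in polyclonal cells and 2.90, 1.73, 2.01 and 2.25 TPM in WT5. It was 3.74-fold lower in WT5 (z-score difference -0.698 ± 0.0548, adjusted p = 1.22e-05, limma), which is below the size needed for a call. A930024N18Rik, whose exons overlap Dll1 on the opposite strand, was also lower in WT5 by its mean TPM, at 0.158 against 0.86, and the sources used here do not say whether strand was used in counting.

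These shifts changed which ligand made up the pool. Dll1 accounted for 77.6% ± 1.59 (SD, n = 4) of the summed TPM of the 3 ligands in polyclonal cells and for 2.03% ± 0.441 in WT5. The summed level was 10.7 ± 1.17 TPM in polyclonal cells and 109 ± 4.55 TPM in WT5, so the ligand total moved as well as its makeup.

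Among the receptors, the total was similar in both lines and the makeup differed. Notch3 (ENSMUSG00000038146, chr17:32120820-32166852, minus strand), best known from vascular smooth muscle, was at 1.76, 1.64, 1.96 and 1.96 TPM in polyclonal cells and at 13.1, 12.8, 13.2 and 11.2 TPM in WT5. It rose 6.86-fold (z-score difference 0.821 ± 0.0239, adjusted p = 7.74e-08, limma), again short of the call. Notch1 (ENSMUSG00000026923, chr2:26457903-26516663, minus strand) was at 6.72, 7.2, 9.88 and 8.64 TPM in polyclonal cells and at 18.6, 16.4, 18.9 and 15.6 TPM in WT5. Its ratio of 2.14 corresponds to a z-score difference of 0.287 ± 0.0409 (adjusted p = 0.00036, limma). This was the least certain of the 8 differences, since it was 0.121 with an adjusted p-value of 0.0156 when trends of transcript length and GC content were taken out. Genes whose exons overlap Notch1 on the opposite strand moved the other way. Gm13568 went from a mean of 4.94 TPM to 0 and 0610009E02Rik from 4.67 to 0.495 TPM. As for Dll1, it is not known whether strand was used in counting, so reads could be split between these genes and Notch1. The part of this in the Notch1 ratio was not tested. Notch2 (ENSMUSG00000027878, chr3:98013527-98150361, plus strand), the most abundant receptor in every group, was at 36.6, 36.1, 44.01 and 45.02 TPM in polyclonal cells and at 22.9, 24.2, 26.1 and 22.5 TPM in WT5. It was 1.69-fold lower (z-score difference -0.312 ± 0.0280, adjusted p = 2.61e-05, limma).

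The 3 receptors summed to 50.4 ± 6.17 TPM (SD, n = 4) in polyclonal cells and to 53.8 ± 3.70 TPM in WT5. Notch2 was 80.3% ± 1.077 of that sum in polyclonal cells and 44.4% ± 1.72 in WT5. Sums over members are given as a description, without a test.

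**Figure D2:**
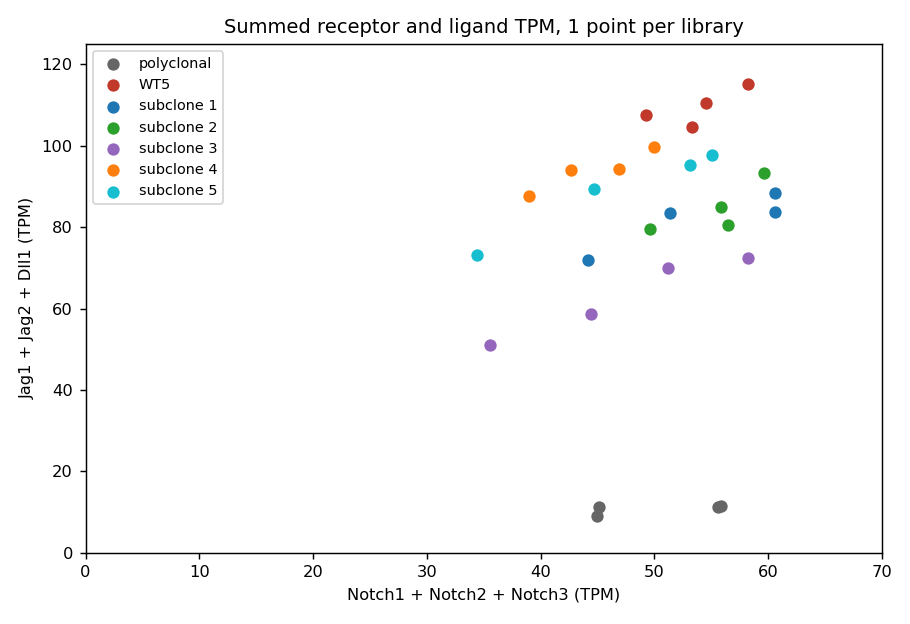
Summed TPM of Notch1, Notch2 and Notch3 (x axis) against summed TPM of Jag1, Jag2 and Dll1 (y axis), with 1 point per library and 1 color per group. The polyclonal libraries lie at 8.99 to 11.6 TPM of ligand, the other 24 libraries at 51.1 to 115 TPM, and the receptor sums of all groups overlap.

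Of the target genes, Hey1 was higher in WT5, Hes1 did not pass and Heyl could not be tested. Hey1 (ENSMUSG00000040289, chr3:8663359-8667256, minus strand), a bHLH repressor, was at 0.22, 0.31, 0.46 and 0.71 TPM in polyclonal cells and at 3.40, 3.16, 3.52 and 3.03 TPM in WT5, a 7.71-fold rise (z-score difference 0.912 ± 0.106, adjusted p = 0.000108, limma). Without polyclonal replicate 4, which holds the highest of these polyclonal values, the z-score difference was 1.00 and Hey1 was called, which made 3 calls in place of 2. Hes1 (ENSMUSG00000022528, chr16:30064384-30067796, plus strand), the most abundant member in every group, was at 128, 186, 238 and 312 TPM in polyclonal cells and at 147, 160.0, 159 and 145 TPM in WT5. The groups overlap, and the z-score difference of -0.199 ± 0.0811 had an adjusted p-value of 0.0549 in limma. The polyclonal libraries were widely spread, with an SD of 78.3 TPM against 8.13 TPM in WT5, and without polyclonal replicate 1 the adjusted p-value was 0.00547. Heyl (ENSMUSG00000032744, chr4:123233556-123249875, plus strand) was listed at 0 in 3 polyclonal libraries and at 0.30 TPM in the other, and at 0.01 to 0.09 TPM in WT5. It was not tested, and no ratio is given.

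Lfng (ENSMUSG00000029570, chr5:140607320-140615545, plus strand) encodes the Fringe enzyme that adds N-acetylglucosamine to Notch and alters the choice between Delta and Jagged ligands. It was at 12.9, 14.7, 13.4 and 12.3 TPM in polyclonal cells and at 26.5, 27.5, 29.9 and 27.8 TPM in WT5. The groups do not overlap, and the ratio was 2.10 (z-score difference 0.275 ± 0.0209, adjusted p = 1.01e-05, limma).

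**Figure D3:**
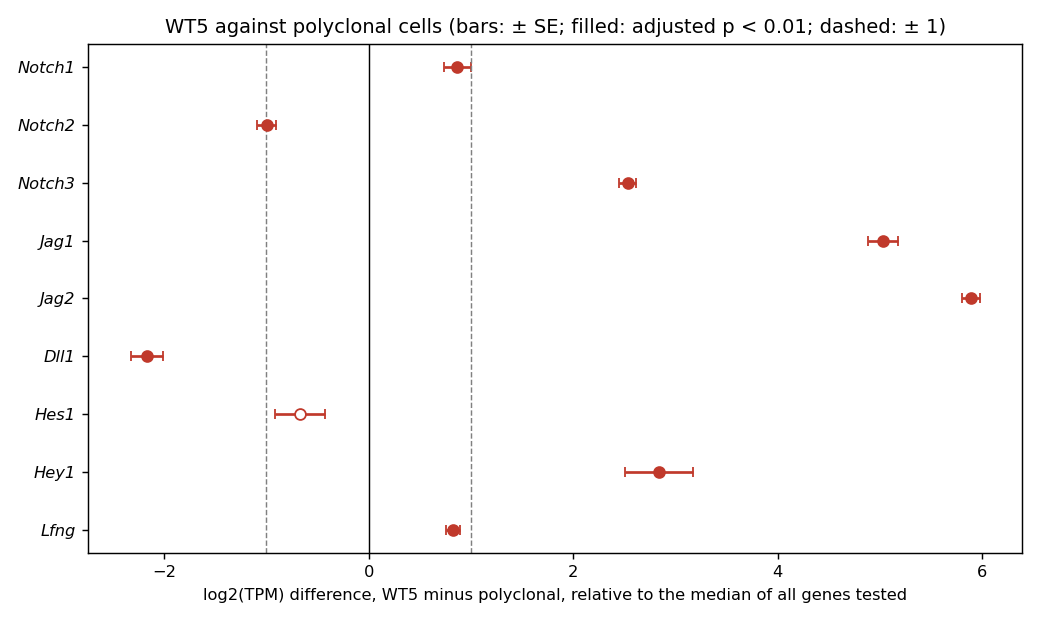
Difference in log2(TPM) between WT5 and polyclonal cells (x axis, relative to the median of all genes tested) for the 9 members tested (y axis), with bars for ± SE, filled points for an adjusted p-value below 0.01 and dashed lines at -1 and 1. Jag1 at 5.03 and Jag2 at 5.89 lie far to the right, Dll1 at -2.17 lies to the left, and Hes1 is the open point.

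Relative to the median gene, the log2 difference exceeded 1 in size with an adjusted p-value below 0.01 for 5 of 9 members, Notch3, Jag1, Jag2 and Hey1 upward and Dll1 downward, against 23.2% of all genes (11.9% higher, 11.3% lower). Between these lines, genes of high GC content and long transcripts were shifted toward WT5, by a median log2 difference of 0.30 for GC of at least 55% and 0.23 for transcripts of at least 7000 bases. The longest transcripts of Notch1, Notch2 and Notch3 have 9488, 10500 and 8016 bases. With these trends taken out, the z-score differences of Jag1 and Jag2 were 1.62 and 1.74, that of Notch3 was 0.641, that of Hey1 was 0.920, that of Dll1 was -0.748 and that of Lfng was 0.193, all with an adjusted p-value below 0.01.

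Of 55 other genes of the pathway, 49 could be tested between WT5 and polyclonal cells, and 22 were higher, 16 lower and 11 did not pass, where 34.5% of all genes were higher and 30.9% lower. Their median log2 difference was 0.562 in size, close to the 0.523 of all genes. By the call, 1 of 49 passed. This was Hey2, a close relative of Hey1, at a mean of 0.0875 TPM in polyclonal cells and 5.91 TPM in WT5, a 67.5-fold ratio (z-score difference 1.88 ± 0.0332, adjusted p = 8.1e-09, limma). Among the 6 other target genes, 4 were tested. Nrarp, a target that feeds back on the Notch complex, rose 4.42-fold from 5.53 to 24.5 TPM (adjusted p = 3.34e-08, limma), Hes7 rose 2.46-fold (adjusted p = 0.0081, limma), and Hes6, which was at 41.8 TPM in polyclonal cells and 38.3 TPM in WT5, was lower relative to the median gene. Hes5 was listed at 0 in all libraries of polyclonal cells and WT5. The targets thus ranged from the overlapping groups of Hes1 to the 67.5-fold ratio of Hey2. That ratio rests on polyclonal values of 0.08 to 0.11 TPM, near the lowest TPM above 0 in the data, 0.01.

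Among genes that make and transmit the signal, differences went both ways. Of 10 genes for proteolytic processing, 2 were higher, 5 lower and 3 did not pass. Aph1c, a subunit of gamma-secretase, was 5.23-fold lower in WT5 (16.7 against 3.19 TPM, adjusted p = 1.43e-06, limma), and part of its sequence is shared with Aph1b, so reads of this pair could be split. Of 14 genes of the nuclear complex, 9 were higher, 2 lower and 3 did not pass. The corepressor gene Spen had a ratio of 3.23, and Rbpj itself was at 22.0 ± 1.48 TPM in polyclonal cells and 26.9 ± 1.83 TPM in WT5 (SD, n = 4). Of the 50-base stretches of Rbpj, 23.8% are shared with several other genes, so its reads could be split too. Of 14 ubiquitin ligase and endocytosis genes, 6 were higher, 6 lower and 2 did not pass, with Mib1 2.10-fold lower in WT5 (41.6 against 19.8 TPM, adjusted p = 5.33e-05, limma). Of 7 other ligand, receptor and Fringe genes, 2 were higher, 2 lower and 3 did not pass. Rfng was 2.12-fold lower in WT5 (21.9 against 10.3 TPM), Mfng was 3.87-fold higher at 0.29 TPM, and Notch4 and Dll4 were below 1 TPM on average in both lines. The Mfng ratio rests on levels near the lowest TPM above 0 in the data, 0.01.

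**Figure D4:**
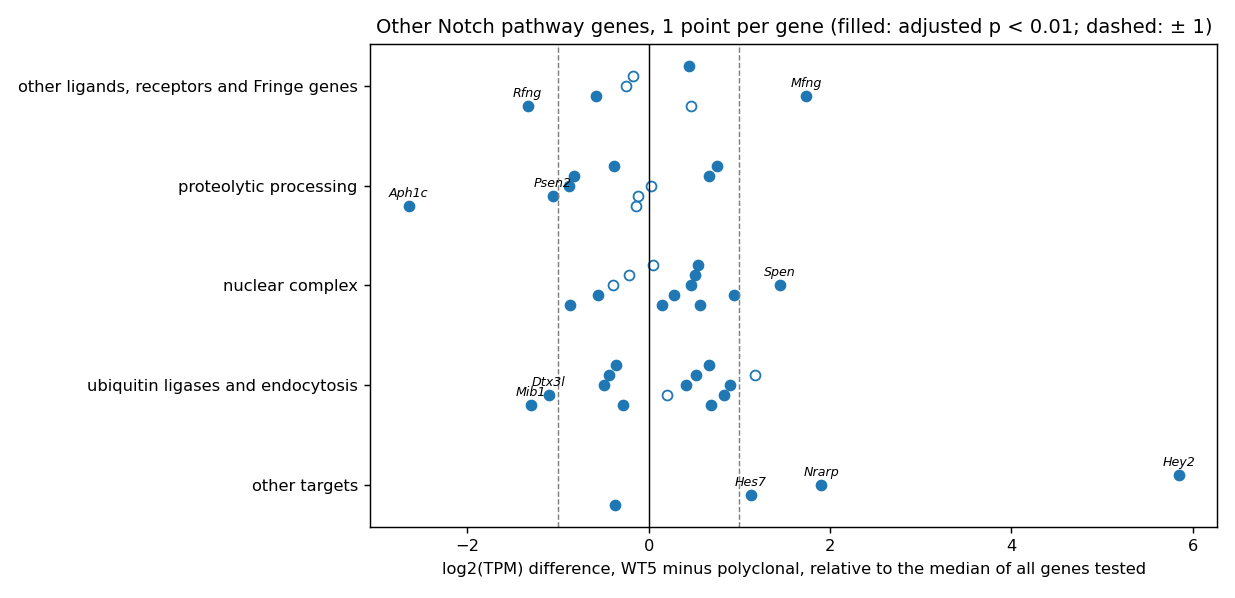
Difference in log2(TPM) between WT5 and polyclonal cells (x axis, relative to the median of all genes tested) for the other pathway genes reported, in rows by role, with filled points for an adjusted p-value below 0.01, dashed lines at -1 and 1, and names for filled points beyond them. Most genes lie between the dashed lines, and Hey2 at 5.85 stands far to the right.

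The next question was whether these levels were kept when single cells of WT5 were grown out again. Across the 24 libraries of WT5 and its subclones, Jag1 ranged from 33.4 to 77.6 TPM, Jag2 from 15.4 to 36.4 TPM, Notch3 from 6.02 to 13.2 TPM and Hey1 from 2.00 to 5.48 TPM. All of these values lie above those of every polyclonal library, whose highest values were 2.31, 0.55, 1.96 and 0.71 TPM. Notch1 also did not overlap, but only just, with 9.90 TPM as the lowest value of the clones and 9.88 TPM as the highest of the polyclonal cells. Dll1, at 1.73 to 4.25 TPM in the clones, and Notch2, at 18.5 to 32.2 TPM, lay below every polyclonal library. In all, 7 of the 9 members with TPM above 0 in all 28 libraries did not overlap between the 24 libraries and the 4 polyclonal ones (5 higher, 2 lower), against 45.1% of genes (29.1% higher, 16.0% lower). Hes1 and Lfng overlapped. Dll1 remained a small share of the ligand sum, at 3.07% to 3.98% on average in the subclones, and Notch2 made up 51.2% to 54.8% of the receptor sum.

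Each subclone was then compared with WT5 over 13860 genes, those never at 0 in the 24 libraries, in tests that share the WT5 libraries. By the call, 0 of 10 members passed in any of the 5 comparisons, with limma as well as with the unequal-variance test. Of all genes, 0.152%, 0.144%, 0.173%, 0.202% and 0.173% passed it in limma for subclones 1 to 5. The SD of log2(TPM) in a library was 2.89 to 3.08 in these fits, so the call again needs a log2 difference of about that size. Smaller differences could not be called. At an unadjusted p-value below 0.05, 7, 6, 8, 8 and 5 members passed in limma and 4, 5, 5, 7 and 5 in the unequal-variance test. At an adjusted p-value below 0.01 without a size limit, 3, 4, 4, 5 and 4 of 10 members differed in limma, where the background was 26.3%, 26.0%, 19.5%, 37.3% and 21.9%. With 10 members these counts are near the background, and with the unequal-variance test they were 1, 2, 1, 4 and 2 of 10. Of the 20 differences, 8 stayed below 0.01 in every alternative of the processing, and these were Jag2 in subclones 1 and 5, Jag1 in subclones 2 and 3, and Notch3, Hes1, Hey1 and Lfng in subclone 4.

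**Figure D5:**
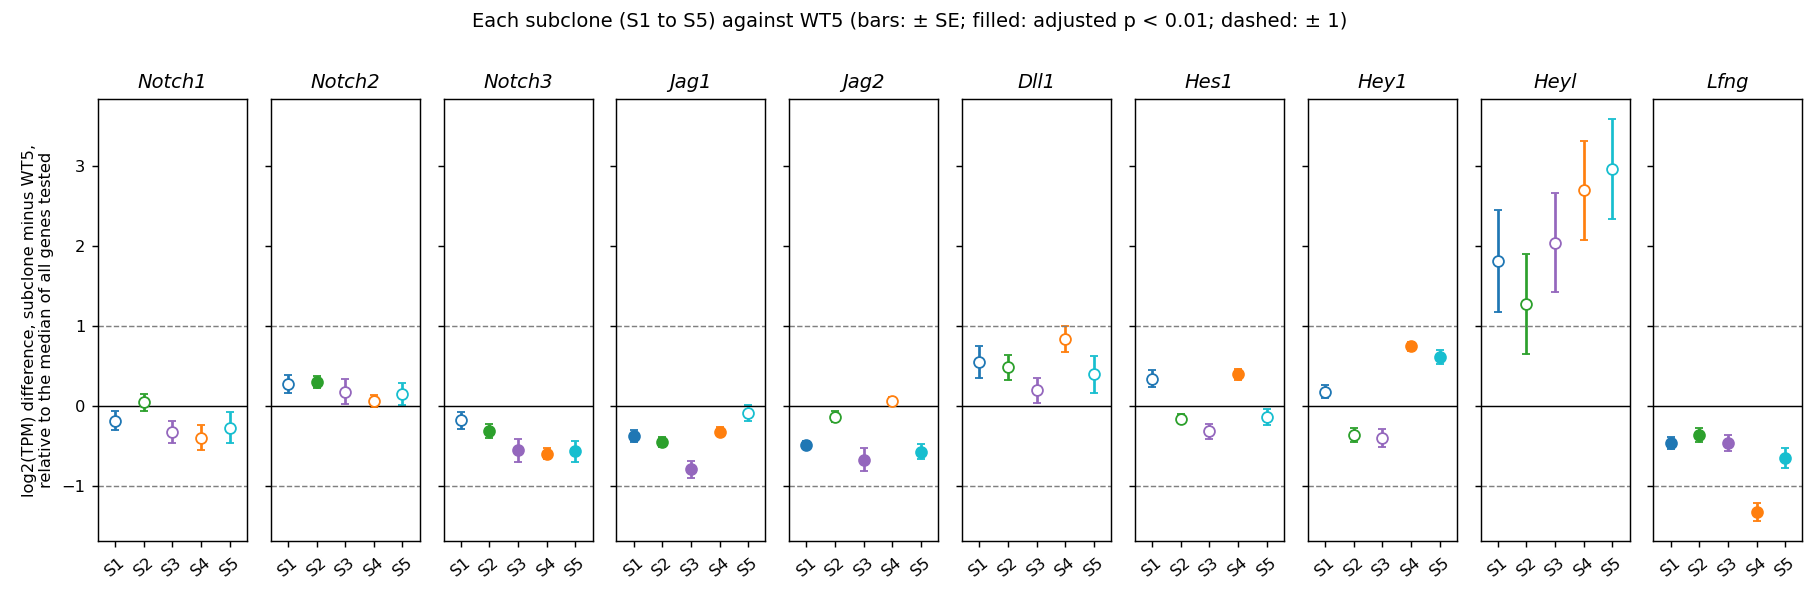
Difference in log2(TPM) between each of subclones 1 to 5 and WT5 (y axis, relative to the median of all genes tested) for the 10 members, with bars for ± SE, filled points for an adjusted p-value below 0.01 and dashed lines at -1 and 1. Filled points are below 0 for Notch3, Jag1, Jag2 and Lfng and above 0 for Hes1 and Hey1 in subclone 4, Hey1 in subclone 5 and Notch2 in subclone 2, and Heyl has the widest bars.

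Lfng was lower than WT5 in all 5 subclones, and it was the only member whose 20 subclone libraries, at 9.06 to 23.2 TPM, did not overlap the 4 of WT5, at 26.5 to 29.9 TPM. This is 1 of 10 members, where 15.6% of genes did not overlap (3.38% higher, 12.3% lower). The subclone libraries are in a table of their own and their sequencing run is not given in the sources used here, so a difference between tables cannot be told apart from one between WT5 and its subclones. In subclone 4 Lfng was at 13.4, 9.70, 10.9 and 9.06 TPM, a 2.60-fold lower mean than WT5 (z-score difference -0.452 ± 0.0422, adjusted p = 0.000116, limma). It was the only member that differed from WT5 by more than 1 on the log2 scale relative to the median gene with an adjusted p-value below 0.01, where 3.07%, 2.63%, 3.76%, 4.93% and 3.46% of genes did so in subclones 1 to 5. In subclones 1, 2, 3 and 5 the mean was 19.7, 21.05, 19.2 and 16.7 TPM against 27.9 TPM in WT5, with adjusted p-values of 0.00126, 0.00722, 0.00431 and 0.0013 in limma. These 4 differences did not pass 0.01 with the unequal-variance test.

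Jag1 was lower than WT5 in subclones 1 to 4 and Jag2 in subclones 1, 3 and 5. The largest differences were in subclone 3, where Jag1 was at 43.8, 33.4, 37.4 and 45.6 TPM and Jag2 at 23.9, 15.4, 18.9 and 24.1 TPM. These are 1.82-fold and 1.66-fold below WT5, with adjusted p-values of 0.000344 and 0.00197 in limma. Notch3 was lower than WT5 in subclones 2 to 5, by 1.29-fold to 1.58-fold. Hey1 was 1.60-fold higher in subclone 4 (adjusted p = 0.000122, limma) and 1.43-fold higher in subclone 5 (adjusted p = 0.00195, limma), and Hes1 was 1.26-fold higher in subclone 4 (adjusted p = 0.000836, limma). Notch1 did not pass in any subclone, Notch2 passed in subclone 2 only with a ratio of 1.19, and Dll1 came closest to passing in subclone 4, with a ratio of 1.69 and an adjusted p-value of 0.0106. Heyl did not pass in any subclone. Its mean was 0.268 TPM in subclone 5 and 0.223 TPM in subclone 4, against 0.0475 TPM in WT5. The adjusted p-values were 0.0105 and 0.0132 in limma, and 8 of 17 alternatives were below 0.01 for each. All of these levels are near the lowest the tables hold.

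Differences among the 5 subclones can be read without WT5, within a single table, from an F test in limma over their 20 libraries. Here 7 of 10 members differed at an adjusted p-value below 0.01, against 25.0% of all genes. These were Jag2, Hey1, Jag1, Heyl, Lfng, Hes1 and Notch3, in order of their p-value. Dll1 had an adjusted p-value of 0.0253, Notch1 of 0.15 and Notch2 of 0.352. Notch3 was the least secure of the 7, with 0.0024 in this test, 0.0144 when genes with zeros were kept and 0.0596 without z-scores.

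Jag2 was highest in subclone 4, at 32.7, 35.8, 32.2 and 36.4 TPM, and lowest in subclone 3. Its order was subclone 3, 5, 1, 2 and 4, with means of 20.6, 21.5, 23.7, 30.1 and 34.3 TPM, and the 4 libraries of subclone 1 lay wholly below those of subclone 2, while the other neighbors in this order overlapped. The F test gave an adjusted p-value of 3.14e-06. Jag1 had another order, with subclone 3 lowest at a mean of 40.1 TPM, then subclones 2, 1 and 4 at 51.5, 55.02 and 55.98 TPM, and subclone 5 highest at 64.6 TPM (adjusted p = 1.04e-05, F test in limma). Subclone 3 was apart from its neighbor and the other neighbors overlapped. In subclone 5, Jag1 was therefore at its highest and Jag2 near its lowest level, and in subclone 4 the levels of Jag2 were at their highest with Jag1 in between. Between subclones 4 and 5 the Jag2 difference had an adjusted p-value of 9.19e-06 and the Jag1 difference one of 0.0211 over all genes of that pair.

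Hey1 was at 5.48, 5.22, 5.19 and 5.13 TPM in subclone 4, at 4.48, 4.94, 4.17 and 5.15 TPM in subclone 5, at 3.64, 3.67, 3.15 and 3.98 TPM in subclone 1, at 2.46, 2.40, 2.85 and 2.17 TPM in subclone 2 and at 2.00, 2.78, 2.51 and 2.16 TPM in subclone 3. Subclones 4 and 5 overlapped at the top, subclone 1 stood alone in the middle, and subclones 2 and 3 overlapped at the bottom. The highest mean was 2.22-fold above the lowest (adjusted p = 5.66e-06, F test in limma). Heyl followed with 0.20 to 0.24 TPM in subclone 4 and 0.21 to 0.35 TPM in subclone 5, against 0.07 to 0.17 TPM in the other subclones (adjusted p = 1.56e-05, F test in limma), but at levels close to the lowest value the tables can hold, which is 0.01 TPM.

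Hes1 ranked differently from Hey1. It was highest in subclones 4 and 1, with means of 192 and 190 TPM that overlapped, and lower in subclones 2, 5 and 3, with 132, 130 and 116 TPM that also overlapped with their neighbors (adjusted p = 7.41e-05, F test in limma). In subclone 5 Hey1 was high and Hes1 was low, and the ratio of Hes1 to Hey1 was 27.8 ± 3.55 (SD, n = 4) there, 36.6 ± 3.78 in subclone 4 and between 46.7 and 53.9 on average in WT5 and the other subclones. In polyclonal cells this ratio was 535 ± 72.5. Between subclones 4 and 5 the difference in Hes1 had an adjusted p-value of 0.000541, and that in Hey1 one of 0.65, in limma.

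Lfng separated subclone 4 from the others. Its mean was 10.7 TPM there, 16.7 TPM in subclone 5 and 19.2 to 21.05 TPM in subclones 1, 2 and 3 (adjusted p = 2.93e-05, F test in limma). All 4 pairs with subclone 4 had an adjusted p-value below 0.01 and no other pair did. Subclone 4 also had the highest means of Jag2, Hes1, Hey1 and Dll1 among the subclones, but none of these passed against the next subclone in limma. The adjusted p-value was 0.0937 for Jag2 against subclone 2 and 0.65 for Hey1 against subclone 5. Against subclone 1 it was 0.54 for Hes1 and 0.329 for Dll1, which did not pass the F test either.

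Among the 10 pairs of subclones there were 100 tests of a member in a pair. Of these, 33 had an adjusted p-value below 0.01 in limma, against 9.85% of all tests of a gene in a pair. The pairs share the 5 subclones and the libraries of the F test, so these tests are not independent. By the call, 0 of 100 passed in limma, against 0.168%, with 55 at an unadjusted p-value below 0.05. A log2 difference above 1 relative to the median gene was found in 6, of which 3 were for Hey1 and 3 for Heyl, against 1.70%. Jag1 and Jag2 differed in 6 pairs each, Hes1 and Hey1 in 5, Heyl and Lfng in 4, Notch3 in 2, Dll1 in 1, and Notch1 and Notch2 in 0.

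Within subclones, libraries differed in the level of long transcripts. Subclone 3 replicate 2 and subclone 5 replicate 1 were the lowest in genes with a transcript of at least 7000 bases, by a log2 deviation of -0.18 and -0.15 relative to all genes. They also held the lowest value of their subclone for all 3 receptors and for Jag1 and Jag2. Without both of these libraries, the F test again gave 7 members, with an adjusted p-value of 0.00156 for Notch3, 0.162 for Notch1 and 0.147 for Notch2.

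Hey2 and Nrarp, the other targets with large differences between WT5 and polyclonal cells, also varied among the subclones. Hey2 was at 5.06 to 6.19 TPM in subclone 5, near the 5.70 to 6.24 TPM of WT5, and at 2.61 to 3.90 TPM in subclones 1 to 4 (adjusted p = 4.36e-06, F test in limma). Nrarp was at a mean of 24.6 TPM in subclone 5 and 24.5 TPM in WT5, and was lowest in subclone 3 with 15.4 TPM (adjusted p = 8.27e-07, F test in limma). In the comparisons with WT5, both were lower in subclones 1 to 4, and neither passed in subclone 5, where the Hey2 ratio was 0.962 and the Nrarp ratio 1.00. By mean, subclone 3 was lowest in Jag1, Jag2, Hes1, Hey1, Dll1 and Nrarp, and subclone 5 was highest in Jag1, Heyl, Hey2 and Nrarp. Of these members, only Jag1 in subclone 3 passed against the next subclone (adjusted p = 0.00508, limma). In subclone 3 the adjusted p-value was 0.468 for Jag2, 0.391 for Hes1, 0.777 for Hey1 and 0.313 for Dll1. In subclone 5 it was 0.0211 for Jag1 and 0.173 for Heyl.

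The genes most like the 3 members with the smallest p-value in the F test were found by the Pearson correlation of log2(TPM + 0.1) over the 20 subclone libraries, among 12142 genes with a mean of at least 1 TPM. The points share their clones, 4 libraries to each, and the values describe these libraries only. For Jag2 these were Dclk2 (r = 0.946), Abr (0.942) and Actn1 (0.931). For Hey1 they were Gnai1 (0.943), Slc14a2 (0.914) and Chn2 (0.903). For Jag1 they were Stc2 (0.959), Arhgap29 (0.936) and Cobl (0.930).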

How the data were processed

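The authors deposited TPM per gene, obtained with STAR 2.7.3a on GRCm38 and RSEM 1.3.1, in a pair of tables over the same 45706 genes, 1 for polyclonal cells and WT5 and 1 for the subclones. Depth is unknown because TPM carries no read number, so no counting interval is given. The tables were joined by gene identifier for the comparisons of subclones with WT5. Symbols came from GENCODE M21, which held 45143 of the identifiers.

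Log2(TPM) without a pseudocount was z-scored within each library over genes above 0 in all libraries compared (13723 or 13860 genes) and tested with limma 3.58.1 in R 4.3.3, two-sided, with Benjamini-Hochberg adjustment. An unequal-variance test, as the study used, served as a check. The fits were tested on simulated data in which the planted differences were larger than most member differences reported here. That check does not cover smaller differences. Alternatives were pseudocounts of 0.1 and 1, a mean of at least 1 TPM, genes above 0 in any library, protein-coding genes, no z-scores, other thresholds, the replicate number as a block, 1 fit over 24 libraries and each replicate left out. Removal of length and GC trends, and of the libraries lowest in long transcripts, were added after the data had been seen.

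All 10 members are named, and of 55 other pathway genes those past the call, with a few others chosen after their values were seen. A gene of these lists is not reported here. The members and lists were chosen with earlier results of these data known. Replicates of a group correlated at 0.986 to 0.993 over genes and no 2 libraries were identical. Figures were drawn with matplotlib 3.10.9 in Python 3.11.15.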

Additional observations from a re-analysis of the deposited data

Results flagged for a closer look

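In 70 sets of a member in a group, the highest and the lowest of 4 libraries were compared with the rest of the group by Dixon's ratio of gap to range. There were 4 sets with a library past its critical value, where chance alone flags about 1 in 20. Jag2 in subclone 1 was at 21.6 TPM in replicate 3, below the other 3 libraries at 24.3 to 24.5 TPM. Hes1 in subclone 4 was at 218 TPM in replicate 3, above the others at 183 to 185 TPM. Lfng in subclone 3 was at 23.2 TPM in replicate 4, above the others at 17.5 to 18.4 TPM. Heyl in polyclonal cells was at 0.3 TPM in replicate 4 and listed at 0 in the others. In the same polyclonal library Hes1 and Hey1 were at their highest, 312 and 0.71 TPM.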

How the results depend on the processing

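Between WT5 and polyclonal cells, the 2 calls among members became 4 with genes of a mean of at least 1 TPM, 7 with log2(TPM) not z-scored and a limit of 1, and 8 without a size limit. The calls of the subclones against WT5, 0 in each, became 3, 4, 4, 5 and 4 without a size limit for subclones 1 to 5, 2 for subclone 4 without z-scores, and 1 for subclone 5 with protein-coding genes, where leaving out 1 library gave 0 to 1 (1 without WT5 replicate 2). Pairs of subclones went from 0 to 5 without z-scores and to 33 without a size limit. Leaving out the size limit is a looser rule. So is a limit of 1 without z-scores, since 1 z-score unit is the SD of log2(TPM) over genes in a library. That SD was 3.07 to 3.14 in the fit of WT5 and polyclonal cells and 2.89 to 3.08 in those of WT5 and the subclones. For the other changes the cause was not tested. The count of 7 members that differed among the subclones stayed at 6 to 8 in the alternatives run. Some differences near 0 changed sign: Notch1 in subclone 2 was -0.00763 without z-scores and -0.0111 to 0.0340 with 1 library left out, Notch2 in subclone 4 was -0.00119 without z-scores, Jag2 in subclone 2 was 0.00767 with length and GC trends removed, Dll1 in subclone 3 was -0.0210 to 0.0675 and Jag1 in subclone 5 was -0.0254 to 0.00194 with 1 library left out. The labels give libraries with the same number no shared origin, and their deviations from the group means correlated at -0.0097 to 0.0179 between WT5 and polyclonal cells, -0.0457 to 0.0637 between subclones and WT5 and -0.276 to 0.129 between pairs of subclones (4 of 40 over 0.1), so the number was not taken as a pairing. With the replicate number as a block (replicate block), the counts were again 2 calls between WT5 and polyclonal cells, 0 in each subclone comparison, 7 members among the subclones and 0 calls between pairs, while 12 of the 20 differences of subclones from WT5 at an adjusted p-value below 0.01 no longer passed it. With the unequal-variance test 10 of the 20 did not. Heyl, Mfng and the polyclonal values of Jag2, Hey1 and Hey2 are near the lowest TPM the tables hold, and TPM gives no read number behind them.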
